A study of Mus musculus with 5 samples.

Results

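Ribosome footprints on 10 genes that encode subunits of the SWI/SNF (BAF) chromatin remodelling complexes were examined in mouse embryonic stem cells (mESCs), cultured cells that can still form every tissue of the body. The genes were *Smarca4*, *Smarcc1*, *Smarcc2*, *Smarcd1*, *Smarcb1*, *Smarce1*, *Arid1a*, *Actl6a*, *Dpf2* and *Brd9*. They were chosen by name, with earlier results of these data known, as subunits of the embryonic stem cell form of the complex (esBAF). They are 10 of 21917 protein-coding genes on the list of transcripts. The 10 genes have 35 protein-coding transcripts among 135276 transcripts in all, and the transcript of each gene with the highest mean level stands for the gene. Lists of 21 other SWI/SNF subunits and of 11 ATPases, 10 of them from other remodelling families, served for comparison.

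The design sets ribosomes captured through their nascent peptides against ribosomes isolated by sedimentation. For both methods elongation was stopped with cycloheximide, and 1.3 U of RNase I degraded the uncovered RNA of the lysate within 45 min. Standard RIBO-seq (3 libraries) pelleted ribosomes through a 30% sucrose cushion. AHARIBO RIBO-seq (2 libraries) linked biotin to nascent peptides that contain azidohomoalanine (AHA), an analog built in where the code calls for methionine, and took the ribosomes out on magnetic beads. The labels name each of the 5 libraries a biological replicate and call it untreated, and no dose of AHA is given for the ribosome profiling itself. The methods name the mESC line as 46C where they describe the RNA-seq and proteomics. There was no library from capture without AHA, so footprints bound to the beads without a labeled peptide cannot be told apart from the rest. Fragments of 25 to 35 nt were read. Counts summed over all transcripts came to 6403651 to 11150527 per library after duplicate removal, which had taken 43.3% to 47.7%. A read that matches several transcripts may be counted more than once in these sums.

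The cell type given by the labels was checked first. All 8 markers of pluripotent stem cells were above 1 CPM (counts per 1000000 counts of the library, summed over transcripts and scaled with TMM factors). Their summed level was 1265 to 1361 CPM in standard and 1158 to 1267 CPM in AHARIBO RIBO-seq. Of 5 neuron markers 2 had a mean of at least 1 CPM over the 5 libraries, and most of their summed level was *Tubb3*, with sums of 41.2 to 42.1 CPM in standard and 37.4 to 37.6 CPM in AHARIBO RIBO-seq. The 5 fibroblast markers, which would show feeder cells, summed to 3.86 to 5.04 and 4.11 to 4.39 CPM, with *Lum* at 0 in every library. The 5 primitive endoderm markers summed to 5.52 to 8.88 and 4.72 to 5.99 CPM. The part of other cell types in the results was not tested.

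SWI/SNF complexes use the energy of ATP to slide or evict nucleosomes and so open DNA to transcription factors. Each complex has one catalytic ATPase, a scaffold built on SMARCC and SMARCD proteins, an actin-related arm on the ATPase, and a variable module that defines the canonical (BAF), polybromo (PBAF) and non-canonical (ncBAF) forms. SMARCB1 and SMARCE1 belong to the scaffold of BAF and PBAF. The form found in embryonic stem cells, esBAF, is known for *Smarca4*, *Smarcc1*, *Smarcd1* and *Arid1a*, is needed for self-renewal and pluripotency, and contains little or no SMARCC2. *Brd9* marks ncBAF, which lacks ARID1A, SMARCB1, SMARCE1 and DPF2, so the 10 genes do not all belong to one particle.

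The start codon regions of the members' transcripts are shown because initiation and the first methionine, where AHA labeling can begin, both lie there. Each line runs 5′ to 3′ from at most 9 bases before the start codon to 18 bases after it, taken from the Gencode M21 transcripts (GRCm38), with the start codon in capitals.
Smarca4: ccagtaaagATGtctactccagacccaccc
Smarcc1: acggtgactATGgccgcgacagcgggtggc
Smarcc2: gagaagATGgcggtgcggaagaaggac
Smarcd1: tccgggaagATGgcggcccgggcgggtttc
Smarcb1: cccgccgccATGatgatgatggcgttgagc
Smarce1: tcttccaaaATGtcaaaaagaccatcttat
Actl6a: acagtagccATGagcggcggcgtgtacggc
Arid1a: ATGgccgcgcaggtcgccccc
Dpf2: acagggaagATGgcggctgtggtggagaat
Brd9: atctcagccATGggcaaaaagcacaagaag

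All 10 coding sequences open with ATG. In the *Smarcb1* transcript the start codon is followed directly by more methionine codons, so that its second methionine is codon 2. The second methionine is codon 19 in *Smarce1*, 21 in *Dpf2*, 27 in *Smarca4*, 40 in *Smarcd1*, 48 in *Arid1a* and 53 in *Actl6a*. It comes much later in *Smarcc1* (codon 109), *Smarcc2* (codon 117) and *Brd9* (codon 175). The *Arid1a* transcript begins at its start codon, and the other 9 have a purine at position -3, counting the A of ATG as 1, as do 86.7% of the 11326 coding starts of expressed genes examined. A G at position 4 is found in 5 of these 9 and in 53.2% of all starts. Methionine made up 1.79 (*Dpf2*) to 3.98 (*Arid1a*) of 100 codons, and in 9 of 10 members this share lay above the median of 2.13 over all starts. These features are descriptions of the sequence and carry no test.

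Levels of different genes are compared here only as footprint density, the CPM of a transcript divided by the kilobases of its coding sequence. Over the 11699 genes ranked by density the median was 6.84 CPM per coding kb. The median of the members was 26.9, and 8 of 10 lay above the median gene. In bulk libraries a lower level per cell and fewer cells with the mRNA cannot be told apart, and footprints alone do not separate the amount of an mRNA from its load of ribosomes.

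*Smarca4* (BRG1) is the catalytic ATPase that moves nucleosomes. Its main transcript (ENSMUST00000098948.9, chromosome 9, 21616169 to 21704230, plus strand, GRCm38) has 34 exons and 4851 coding nt. It held 1182, 1147 and 836 reads in standard replicates 1, 2 and 3 and 1452 and 1205 reads in AHARIBO replicates 1 and 2. The density was 27.3, 26.1 and 27.3 CPM per coding kb in standard and 26.2 and 24.8 in AHARIBO RIBO-seq. The groups overlapped, and the mean over the 5 libraries, 26.3 ± 1.04 (SD, n = 5), placed *Smarca4* at the 81.3rd percentile of ranked genes.

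The SMARCC proteins form the dimer on which the complex assembles. *Smarcc1* (BAF155; chromosome 9, 110131980 to 110240178, plus strand) held 1190, 1227 and 821 reads in standard and 1589 and 1377 in AHARIBO RIBO-seq. Its density was 40.3, 40.9 and 39.3 CPM per coding kb in standard and 42.0 and 41.5 in AHARIBO RIBO-seq. Both AHARIBO libraries lay just above the 3 standard ones. *Smarcc2* (BAF170; chromosome 10, 128459321 to 128489356, plus strand), the paralog that joins or replaces SMARCC1 in differentiated cells, had only 95, 100 and 65 reads in standard and 130 and 112 in AHARIBO RIBO-seq. This came to 2.92, 3.03 and 2.83 against 3.13 and 3.07 CPM per coding kb. *Smarcc2* was the lowest member in every library, at the 30.9th percentile of ranked genes, against the 88.1st for *Smarcc1*.

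*Smarcd1* (BAF60A), which links the complex to transcription factors, lies on chromosome 15 (99702129 to 99713991, plus strand). Its density was 35.1, 37.7 and 31.9 CPM per coding kb in standard and 34.7 and 33.5 in AHARIBO RIBO-seq, from 311 to 613 reads per library. The AHARIBO values lay within the range of the standard ones. *Smarcb1* (BAF47, SNF5; chromosome 10, 75896777 to 75921614, minus strand), a core subunit that contacts the nucleosome and is a tumor suppressor, had 47.8, 46.9 and 42.5 in standard and 45.0 and 42.7 in AHARIBO RIBO-seq. It was the second highest member in every library. *Smarce1* (BAF57; chromosome 11, 99209047 to 99231017, minus strand), an HMG-box protein, had 22.1, 19.8 and 19.8 CPM per coding kb in standard and 19.4 and 20.7 in AHARIBO RIBO-seq. Its value is uncertain, because 37.6% of the 30-nt windows of its transcript also occur in transcripts of other genes, pseudogenes among them. The same share was 6.66% in *Smarcc1*, 2.47% in *Actl6a*, 0.41% in *Smarca4*, 0.184% in *Arid1a* and 0 in the other 5 members.

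*Actl6a* (BAF53A) is the actin-related protein that sits with actin on the ATPase, and it is shared with other remodelling and acetyltransferase complexes. Its transcript (chromosome 3, 32708507 to 32726973, plus strand) held 703, 704 and 484 reads in standard and 833 and 753 in AHARIBO RIBO-seq. Its density, 61.2, 60.4 and 59.7 CPM per coding kb in standard and 56.6 and 58.4 in AHARIBO RIBO-seq, was the highest of the members in every library. Both AHARIBO values lay below all 3 standard values.

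The remaining members belong to the modules that give a complex its identity. *Arid1a* (BAF250A; chromosome 4, 133679008 to 133753611, minus strand), the large DNA-binding subunit of canonical BAF, held 1158, 1250 and 818 reads in standard and 1502 and 1204 in AHARIBO RIBO-seq. Spread over 6861 coding nt this gave 18.9, 20.1 and 18.9 CPM per coding kb in standard and 19.2 and 17.5 in AHARIBO RIBO-seq. *Arid1a* thus had about as many reads as *Smarcc1* (40.8 CPM per coding kb) but a lower density, because its coding sequence is longer. *Dpf2* (BAF45D; chromosome 19, 5896516 to 5912871, minus strand), a PHD-finger protein that reads histone acetylation, had 24.4, 29.4 and 27.9 in standard and 28 and 28.1 in AHARIBO RIBO-seq. Standard replicate 1 was the lowest and the other 4 libraries lay close together. *Brd9* (chromosome 13, 73937811 to 73960894, plus strand), the bromodomain subunit of ncBAF, had 97, 86 and 45 reads in standard and 104 and 80 in AHARIBO RIBO-seq. Its density was 6.08, 5.31 and 3.99 against 5.09 and 4.47 CPM per coding kb, and it varied most of the members, with a coefficient of variation of 16% against 2.57% to 6.81% for the others.

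**Figure D1:**
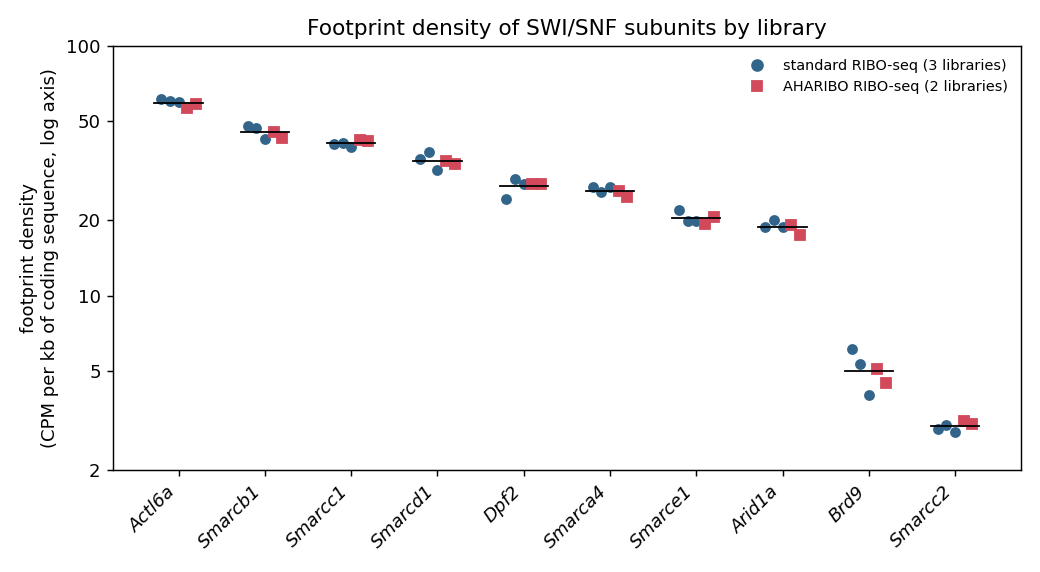
Footprint density of the 10 genes in CPM per kilobase of coding sequence (log axis), with 1 point per library and a line at the mean of 5 libraries. *Actl6a* is highest at 59.3 and *Smarcc2* lowest at 3.00, and *Brd9* and *Smarcc2* stand apart from the other 8 genes in every library.

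The order of the means was *Actl6a* (59.3 ± 1.79 CPM per coding kb, SD, n = 5), *Smarcb1* (45.0 ± 2.40), *Smarcc1* (40.8 ± 1.05), *Smarcd1* (34.6 ± 2.12), *Dpf2* (27.5 ± 1.87), *Smarca4* (26.3 ± 1.04), *Smarce1* (20.4 ± 1.08), *Arid1a* (18.9 ± 0.925), *Brd9* (4.99 ± 0.80) and *Smarcc2* (3.00 ± 0.118). The order was the same in the means of both methods. The highest exceeded the lowest 19.8-fold, but without *Brd9* and *Smarcc2* the other 8 lay within 3.13-fold (4.41-fold with transcript length and 7.01-fold with reads summed over transcripts). The largest step between neighbors was from *Arid1a* to *Brd9*, 3.83-fold (log2 ratio 1.94 ± 0.22, SD). *Brd9* and *Smarcc2* were also the 2 lowest members under both of those settings, but there *Smarce1* was the gene next above *Brd9*, by 2.34-fold with transcript length and 1.53-fold with summed transcripts, where the largest step was from *Dpf2* to *Smarce1* (2.67-fold). From *Brd9* to *Smarcc2* the step was 1.65-fold, and from *Actl6a* to *Smarcb1* 1.32-fold.

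The pairs of neighbors and their direction were set by the means of these same 5 libraries, so the test below is no independent check of the order. In 7 of the 9 neighboring pairs the order held in 5 of 5 libraries. An exact two-sided sign-flip permutation test gave p = 0.0625 for each of these 7, the smallest that 5 libraries allow, and 0.08036 after Benjamini-Hochberg adjustment over the 9 pairs, so no step could pass 0.05. *Dpf2* and *Smarca4* did not differ beyond their spread (log2 ratio 0.06 ± 0.14, higher in 4 of 5 libraries, exact permutation p = 0.3125). The same holds for *Smarce1* and *Arid1a* (0.11 ± 0.12, 4 of 5, exact permutation p = 0.1875). Both of these pairs turned when the whole transcript length replaced the coding length, to log2 ratios of -1.04 and -0.88, and when reads were summed over the transcripts of a gene, to -0.84 and -1.46. With summed transcripts *Smarcc1* and not *Actl6a* was highest, so the order given here holds for 1 transcript per gene and coding length.

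Several members have paralogs that take the same place in other cell types, and their ratios were taken within each library. *Smarcc1* exceeded *Smarcc2* 13.6-fold in density, with 13.8, 13.5 and 13.9 in standard and 13.4 and 13.5 in AHARIBO RIBO-seq, the most even of the 7 ratios with a value in every library (log2 3.77 ± 0.02, SD, n = 5). With transcript length it was 8.74-fold. None of the 30-nt windows of *Smarcc2* occurs in another gene. *Smarca4* exceeded *Smarca2* (BRM), the alternative ATPase, 259-fold, from 5822 against 22 reads over the 5 libraries (95% counting interval 171 to 414). As a ratio of mean densities this was 257-fold, and 187-fold with summed transcripts. *Actl6a* exceeded its neuronal paralog *Actl6b* 432-fold, from 3477 against 8 reads (219 to 1000). As a ratio of mean densities this was 394-fold, 314-fold with transcript length and 269-fold with summed transcripts. *Smarca2* and *Actl6b* were thus near the limit of detection, where 3 reads make 0.269 to 0.468 CPM depending on the library. Of the 30-nt windows of *Smarca2*, 17.2% occur in more than 10 transcripts, which is the default limit on places per read of the STAR aligner, and how this touched its count was not tested. These intervals cover counting error only, and the reads carry no molecular identifiers.

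*Dpf2* exceeded *Dpf1* 6.76-fold (4.09-fold with transcript length and 3.33-fold with reads summed over transcripts). *Dpf3*, with 20 reads against 1478, was 71.4-fold lower (46.1 to 117), and 29.2-fold lower with summed transcripts. The ratio of *Dpf2* to *Dpf1* spread from 4.64 to 8.88 between libraries. *Smarcd1* exceeded *Smarcd2* 2.17-fold (1.92 to 2.49) and *Smarcd3* 8.98-fold (6.69 to 10.8, and 5.28-fold with transcript length). *Arid1a* exceeded *Arid1b* 7.03-fold (6.21 to 7.98). In 2 pairs the member was the lower one in 5 of 5 libraries: *Brd7*, the bromodomain protein of PBAF, exceeded *Brd9* 2.08-fold, and *Smarca5* (SNF2H), the ATPase of the ISWI family, exceeded *Smarca4* 1.26-fold. For each of the 7 pairs with enough reads the exact sign-flip permutation p was 0.0625, the smallest possible, and it was 0.0625 after adjustment over the 7. The direction between *Smarca4* and *Smarca5* turned with the transcript length (log2 ratio 0.22 against -0.34), and both this direction and that between *Brd9* and *Brd7* turned with summed transcripts (1.55 and 0.36). In *Smarca5*, 41.3% of the 30-nt windows occur in other genes.

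**Figure D2:**
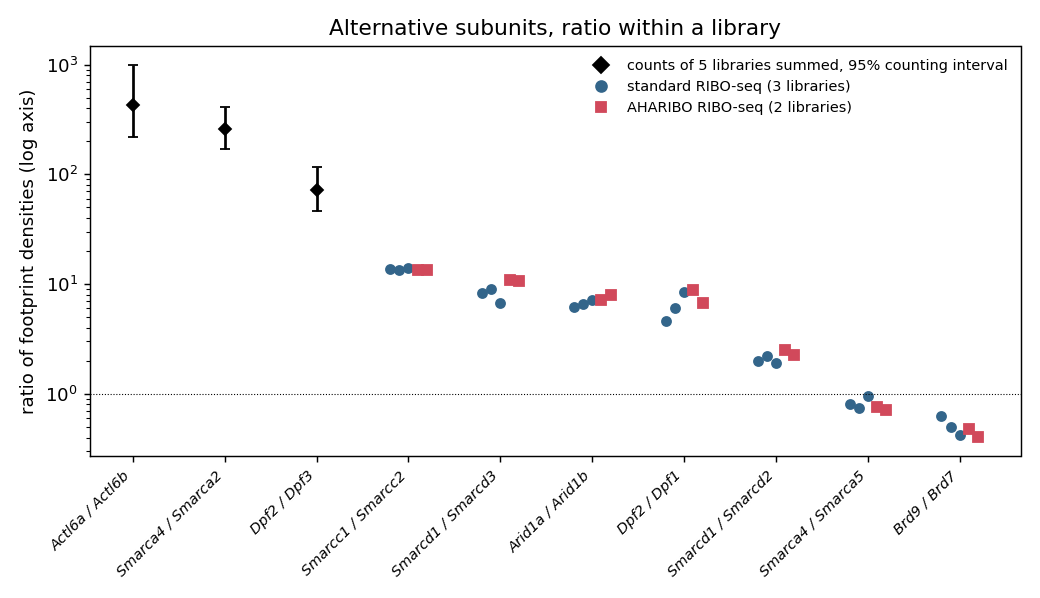
Ratio of footprint density between a member and a paralog or counterpart (log axis, dotted line at 1), with 1 point per library for 7 pairs and, for 3 pairs with a paralog at or under 3 reads in at least 1 library, the ratio of summed reads with its 95% counting interval. *Smarcc1* over *Smarcc2* stays between 13.4 and 13.9, and only the ratios to *Brd7* and *Smarca5* lie under 1.

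The position of each member in the complex can be read against all subunits measured. In the PBAF module, *Phf10* had a density of 26.5 CPM per coding kb, close to that of *Dpf2*, while *Arid2* had 5.65 and *Pbrm1* 3.49. Of the 30-nt windows of *Pbrm1*, 62.6% occur in more than 10 transcripts, and as for *Smarca2* how this touched its count was not tested. *Actb*, the actin that pairs with ACTL6A and a major part of the cytoskeleton, reached 526, and *Bcl7c* 20.4, *Smarcd2* 16.0 and *Bcl7b* 13.2. In *Bcl7c* 24.8% of the 30-nt windows also occur in another gene, which makes its level and its difference between methods uncertain. The median of the other subunits with a coding length was 3.89 CPM per coding kb, against 26.9 in the members. The lists were chosen by name with earlier results of these data known, so this is a description only.

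**Figure D3:**
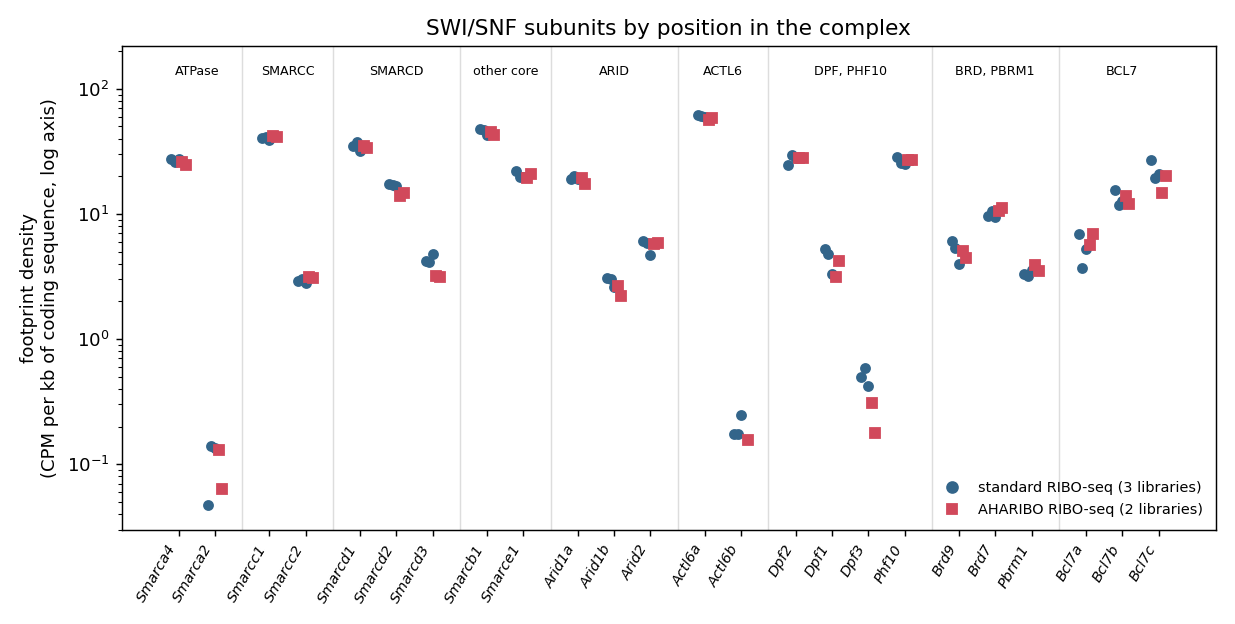
Footprint density (CPM per kilobase of coding sequence, log axis) of members and alternative subunits grouped by their place in the complex, with 1 point per library; libraries with 0 reads (*Actl6b* in AHARIBO replicate 1) have no point, and *Actb*, *Bcl11a*, *Bcl11b*, *Bicra*, *Ss18l1* and subunits without a coding length (*Ss18*, *Bicral*) are left out. *Smarca2*, *Actl6b* and *Dpf3* lie far below *Smarca4*, *Actl6a* and *Dpf2*, and *Phf10* (26.5) lies beside *Dpf2* (27.5).

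No member passed the test for a difference between the methods. In edgeR's quasi-likelihood test across 66972 transcripts, 4.51% of all transcripts were called at a Benjamini-Hochberg adjusted p under 0.05, 2.27% as higher and 2.24% as lower in AHARIBO RIBO-seq, and 0 of the 10 members were. None had an unadjusted p under 0.05, against 18.7% of all transcripts. DESeq2 called 0.333% of all transcripts and 0 members. The log2 fold changes of AHARIBO over standard RIBO-seq ran from -0.13 (*Brd9*) to 0.08 (*Smarcc2*), 7 below and 3 above 0, with a median of -0.05 against 0.00 over all transcripts tested. The adjusted p values lay between 0.65 and 0.87.

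The intervals show how much change could have been missed. For *Smarca4* the log2 fold change was -0.08 (SE 0.08, 95% interval -0.23 to 0.08, edgeR adjusted p = 0.65), a fold between 0.852 and 1.06. *Actl6a* (-0.07, interval -0.23 to 0.09), *Smarcb1* (-0.07, -0.23 to 0.10), *Arid1a* (-0.07, -0.23 to 0.08), *Smarcc1* (0.06, -0.10 to 0.21) and *Smarcd1* (-0.04, -0.21 to 0.13) were bounded as tightly. *Dpf2* (0.05, -0.14 to 0.23) and *Smarce1* (-0.04, -0.24 to 0.15) had slightly wider intervals. With their few reads, *Smarcc2* (0.08, -0.19 to 0.34) and *Brd9* (-0.13, -0.43 to 0.18) were the least bounded.

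The libraries of the methods did not overlap in CPM for 3 of 10 members, *Actl6a* lower and *Smarcc1* and *Smarcc2* higher in AHARIBO RIBO-seq, against 33.8% of all transcripts tested. The make-up of the list was compared as the log2 density of each member minus the mean of the 10 in the same library. The difference of this value between the methods ran from -0.06 (*Brd9*) to 0.11 (*Smarcc2*). The smallest exact permutation p was 0.1 for *Smarcc2*, which is the smallest that 2 against 3 libraries allow, and 0.83 after adjustment over the 10 members. *Smarcc1* and *Smarcc2*, 2 of 10, did not overlap on this scale, where 33.8% of 11671 genes did not.

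All 35 protein-coding transcripts of the members were tested, and 0 were called, against 4.51% of all transcripts. The edgeR adjusted p lay between 0.16 and 0.97, and 1 transcript had an unadjusted p under 0.05, against 18.7% of all transcripts. This was a short *Arid1a* transcript of 1262 nt (ENSMUST00000139709.2, log2 fold change -0.31, edgeR adjusted p = 0.16). Long transcripts of one gene had nearly equal reads, as in the *Smarca4* transcripts with 1182 and 1183 reads in standard replicate 1. They thus appear to hold mostly the same reads and are not taken as separate measurements, though how such reads were counted is not given. *Smarcb1* has a transcript of 1622 nt and one of 1660 nt, whose reads differed by 43 over the 5 libraries.

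Of the 21 other subunits 16 had enough reads to be tested, and 1 was called, against 4.51% of all transcripts. *Actb* fell in AHARIBO RIBO-seq by 0.27 on the log2 scale (SE 0.08, edgeR adjusted p = 0.033), with densities of 548, 540 and 608 CPM per coding kb in standard and 430 and 506 in AHARIBO RIBO-seq. Its log2 fold change shrank to -0.16 without AHARIBO replicate 1 and to -0.17 with duplicates kept. The call was lost with DESeq2 (adjusted p = 0.29) and without standard replicate 1, standard replicate 3 or AHARIBO replicate 1, and 36.5% of the 30-nt windows of *Actb* occur in other genes. Without adjustment 6 of 16 had p under 0.05, all lower: *Actb*, *Bcl7c* (log2 fold change -0.39), *Ss18* (-0.24), *Smarcd2* (-0.26), *Smarcd3* (-0.44) and *Arid1b* (-0.26), against 9.24% of all transcripts in that direction and 9.48% in the other. Leaving out single libraries moved *Bcl7c* between -0.62 and -0.17 and *Arid1b* between -0.41 and -0.14. The median log2 fold change of the 16 was -0.19, against -0.05 in the members. *Actl6b*, *Bcl11a*, *Bcl11b*, *Dpf3* and *Smarca2* stayed under 1 CPM and were not tested.

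**Figure D4:**
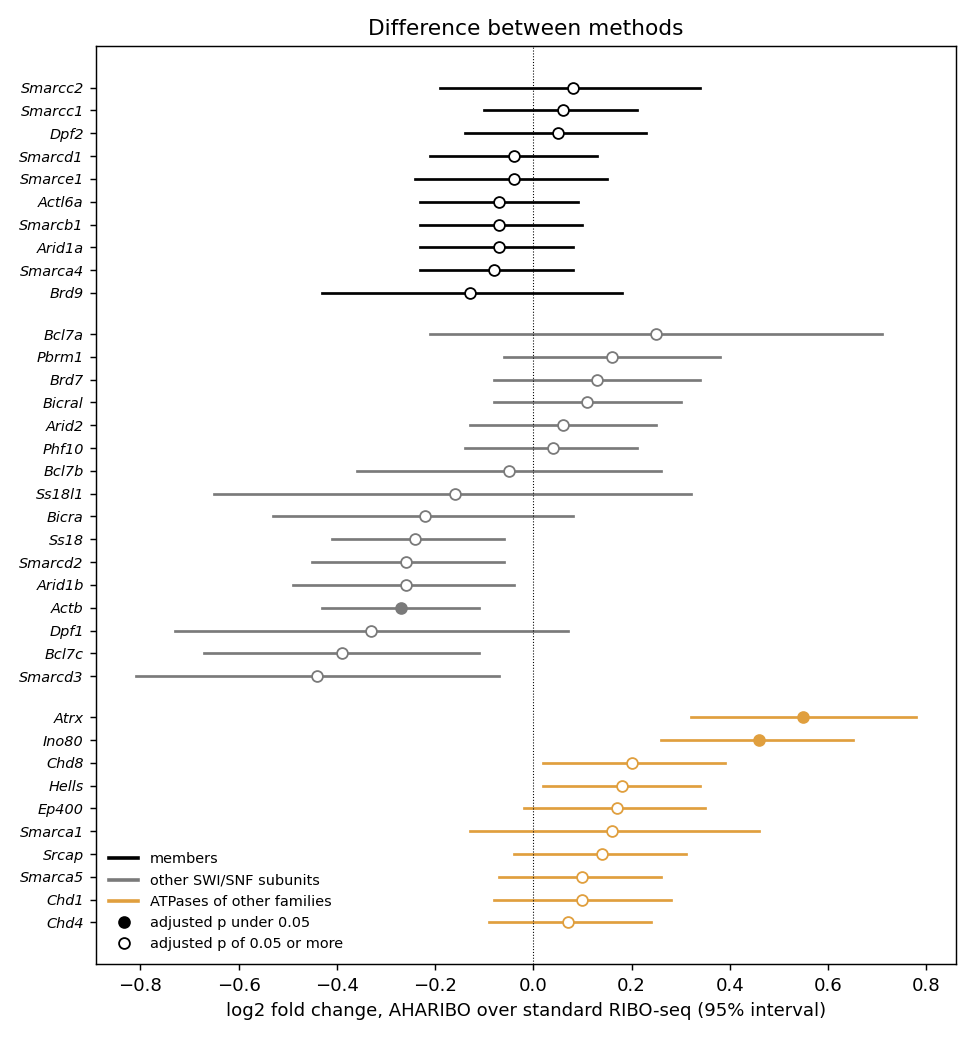
Log2 fold change of AHARIBO over standard RIBO-seq with its 95% interval from edgeR, for the members (black), the other SWI/SNF subunits tested (gray) and ATPases of other families (orange), filled where the adjusted p was under 0.05. The 10 members lie between -0.13 and 0.08 with intervals that all include 0, and only *Actb*, *Atrx* and *Ino80* are filled.

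Set beside the ATPases of other remodelling families, *Smarca4* (26.3 CPM per coding kb) lay below *Hells* (35.7), which acts in DNA methylation, and *Smarca5* (33.3), and above *Chd4* (16.8), the ATPase of the NuRD complex. With transcript length *Smarca4* (20 CPM per kb) lay above *Smarca5* (17.2) and *Hells* (15), and it lay above both with summed transcripts too, so its place against these genes depends on the processing, while it stayed above *Chd4* in both. *Chd1* had 7.70, *Ino80* 5.82, *Srcap* 5.19, *Ep400* 4.98, *Chd8* 4.23, *Atrx* 3.04 and *Smarca1* 2.99. The value of *Srcap* is uncertain, since 90.8% of its windows occur in other genes. In the edgeR fit, which covered these genes too, 2 of the 10 tested were called, both higher in AHARIBO RIBO-seq, where 2.27% of all transcripts were called higher. *Ino80* rose by 0.46 on the log2 scale (SE 0.10, adjusted p = 0.0033) and *Atrx*, which deposits histone H3.3 with DAXX, by 0.55 (SE 0.11, adjusted p = 0.002). Both calls were lost with DESeq2 (adjusted p = 0.23 and 0.21) and with duplicate reads kept (0.064 for each), and that of *Atrx* also without AHARIBO replicate 1 (log2 fold change 0.24, adjusted p = 0.55). All 10 had log2 fold changes above 0, with a median of 0.16 against 0.00 over all transcripts tested, while *Smarca4* had -0.08. With duplicate reads kept 9 of 10 were above 0 (*Chd4* had -0.08), and with summed transcripts *Srcap* had -0.04. Without AHARIBO replicate 1 the median was 0.04 with 7 of 10 above 0, and without AHARIBO replicate 2 it was 0.28.

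The genes whose density was most like that of *Smarca4* over the 5 libraries, by the root mean square difference of log2 density among 11670 genes, were *Khdc3* (0.0243), *Cnot3* (0.0286), *Syf2* (0.0486), *Trim25* (0.0499) and *Wdr1* (0.0508). *Khdc3* had 26.9, 26.3 and 27.0 CPM per coding kb in standard and 25.4 and 25.0 in AHARIBO RIBO-seq. The measure depends on both level and pattern, and the genes share the depth and scaling of each library.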

How the data were processed

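The authors trimmed reads with Trimmomatic 0.36, removed rRNA and tRNA reads, aligned the rest to Gencode M17 transcripts (GRCm38.p6) with STAR, discarded antisense reads and duplicates, and deposited unnormalized counts per transcript, plus a version in which duplicates stayed. How reads matching several transcripts were counted is not given in the sources used here. Samples were grouped by their labels, and 0 columns were left unused. Gene names, coding lengths and sequences came from Gencode M21, in which 99.8% of transcripts were found (2167 only without the version number). CPM used TMM factors (edgeR 4.0.16, R 4.3.3; factors 0.9843 to 1.025), and transcripts with 1 CPM in at least 1 library entered edgeR's quasi-likelihood test, 3 standard against 2 AHARIBO libraries, with Benjamini-Hochberg adjustment over all tested; the standard errors derive from F statistics. DESeq2 1.42.0 served as a second test. P-values measure the spread between libraries labeled as biological replicates. Over better covered main transcripts the variance between standard libraries was 1.22 to 1.78 times that of counting error. It was 1.86 times between the AHARIBO libraries and 2.08 to 4.65 times between libraries of different methods. In simulated counts for this comparison (66282 transcripts, 200 changed), edgeR recovered 93% of 2-fold and 100% of 4-fold changes with 9 false calls, and DESeq2 74% and 99% with 2. The simulation gave every transcript the same fixed dispersion, drew transcripts independently and changed only better covered ones. These rates may therefore not hold for the real libraries. Tables were handled in Python 3.11.15 with pandas 2.3.3. The alternatives varied test, scaling, filter, duplicates, transcript choice, length, the replicate block and single libraries.

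The genes named are all members, the other subunits that were called, that are highest or that pair with a member, all listed ATPases, and the 5 genes most like *Smarca4*. Other genes are named where a count of 6 or fewer was given, and *Arid2* and *Pbrm1*, as PBAF subunits, were named after their values were seen. The members and lists were chosen with earlier results of these data known.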

Additional observations from a re-analysis of the deposited data

How the results depend on the processing

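Under 15 alternative settings 0 members were called, the lowest adjusted p was 0.43 and the log2 fold changes stayed between -0.25 and 0.14, while the number of all transcripts called went from 3021 to between 28 (transcripts of a gene summed) and 3829 (without AHARIBO replicate 2), with 223 in DESeq2, 510 without AHARIBO replicate 1, 1173 without standard replicate 1, 1815 without standard replicate 3 and 1792 with the replicate number as a block. The deviations of same-numbered libraries correlated with r = 0.0355 and -0.0942, which cannot show whether the numbers pair the samples, since the deviations of 2 AHARIBO libraries mirror each other. The paper describes its standard RIBO-seq as done on the input and speaks of 2 independent replicates per method. Libraries of the 2 methods may therefore share lysates, which the main test without a block does not take into account. With the replicate block 0 members and 0 other subunits were called. The 1 call among the other subunits, *Actb*, became 0 with DESeq2, with TMM after the filter, with 1 CPM in every library, with duplicates kept and with summed transcripts, and 0 to 2 when single libraries were left out (2, with *Bcl7c*, without standard replicate 2 or AHARIBO replicate 2, and 0 without standard replicate 1 or 3 or AHARIBO replicate 1). The log2 range from highest to lowest member, 4.31, became 3.81 with transcript length, 4.05 with summed transcripts (where *Smarcc1* was highest) and 4.58 with duplicates kept. The 2 members not overlapping in relative level became 4 with duplicates kept (35.9% of all genes), and 3 to 4 without single libraries (4 without standard replicate 2 or 3 or AHARIBO replicate 1), where 45% to 60.5% of all genes did not overlap. *Smarca4* over *Smarca5* turned to 0.22 with transcript length, and with summed transcripts to 1.55, *Brd9* over *Brd7* to 0.36 and *Smarcb1* over *Smarcc1* to -0.68. In such sums a read appears to count again for each transcript it matches. With *Brd9* at 45 to 104 reads per library, small changes of *Brd9* were not detectable at this depth. The calls of *Ino80* and *Atrx*, whose alternatives were chosen after seeing the data, were also lost with summed transcripts (adjusted p = 0.16 and 0.28), and *Ep400* was called without AHARIBO replicate 2 (0.33, adjusted p = 0.035).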
